A study of Homo sapiens with 2 samples.

Results

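The genes described here are 9 members of the bone morphogenetic protein (BMP) pathway and its response: the ligand gene BMP4, the receptor genes BMPR1A and BMPR2, the signal transducer genes SMAD1 and SMAD5, the inhibitory SMAD7, and the response genes ID1, ID2 and ID3. They were chosen by symbol, with earlier results of these data known. All 9 were found among the 22474 genes of the tables. Single cells of H9, an established human embryonic stem cell line, were profiled with Smart-seq2, which amplifies polyadenylated RNA from single cells without molecular barcodes. One state was ESCs (embryonic stem cells, 16 cells) and the other was ffEPSCs (feeder-free extended pluripotent stem cells, 25 cells), which were derived from H9 ESCs. Both states thus come from the same line, and the labels name no allele, agent or dose. Each state was 1 deposited sample. Cells of a sample are not replicates, so the states are compared without a test and all values describe these 2 libraries alone. Differences between cultures and between states cannot be told apart.

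BMP ligands bind a complex of type I receptors, such as the one encoded by BMPR1A, and type II receptors, such as the one encoded by BMPR2. The activated type I receptor phosphorylates SMAD1 and SMAD5, which enter the nucleus with SMAD4 and switch on target genes, the ID genes first among them. ID proteins are helix-loop-helix proteins without a DNA-binding region. They pair with E proteins and keep them from binding DNA. In human pluripotent cells added BMP4 is a classical trigger of differentiation toward extraembryonic and mesodermal fates, while in mouse ESCs BMP and ID proteins help to hold back neural differentiation.

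ESC cells had 11714517 to 19965639 gene counts each (265412149 in all). Those of ffEPSC cells ranged between 12507469 and 17811209 (374101290 in all). The 2 libraries shared 0 cell names. Levels are gene counts scaled to the total of 1 cell, or of all cells of a library together (CPM). Every ratio is the pooled ffEPSC level over the pooled ESC level on the log2(CPM + 1) scale, which understates the difference of low genes. Each of 8 pluripotent cell markers was read in both libraries, with summed levels of 1182 to 4644 CPM in ESC cells and 2711 to 5224 CPM in ffEPSC cells. The 4 shallowest ESC cells (11714517 to 14683949 counts, against 16349317 or more in the other 12) were also those lowest in the pluripotency gene POU5F1, at 63.5 to 218 CPM against 496 CPM or more. Cell names carry a set number whose meaning is not given. Sets 1 and 3 hold cells of both states, with 7 and 9 ESC cells and 3 and 2 ffEPSC cells, while sets 2 and 4 hold 9 and 11 ffEPSC cells. Genes on chromosomes 5, 11, 14, 20 and 22 were higher as a group in the ffEPSC library, with median ratios of 0.31 to 0.48, and 7 of the 25 ffEPSC cells had little or no such shift. BMP4 lies on chromosome 14, SMAD5 on chromosome 5 and ID1 on chromosome 20, so their ratios are given with these values beside them.

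BMP4, ID1 and SMAD7, 3 of the 9 genes, were higher in ffEPSCs by 2-fold or more, and ID3 alone was lower by as much. The same lines were passed upward by 8.3% and downward by 5.84% of the 10825 genes that reached 5 CPM in either library. The median log2 ratio was 0.53 for the 9 genes and 0.04 for those 10825. Because the 9 genes were chosen with earlier results of these data known, nothing is read from these counts or medians as a set. All 9 passed the floor of 5 CPM, and BMP4 alone among them passed through the ffEPSC library only. The other 5 genes, BMPR1A, BMPR2, SMAD1, SMAD5 and ID2, stayed within 2-fold. The ligand and 1 response gene were thus higher, another response gene lower, and the receptor and transducer genes between them differed less.

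**Figure D1:**
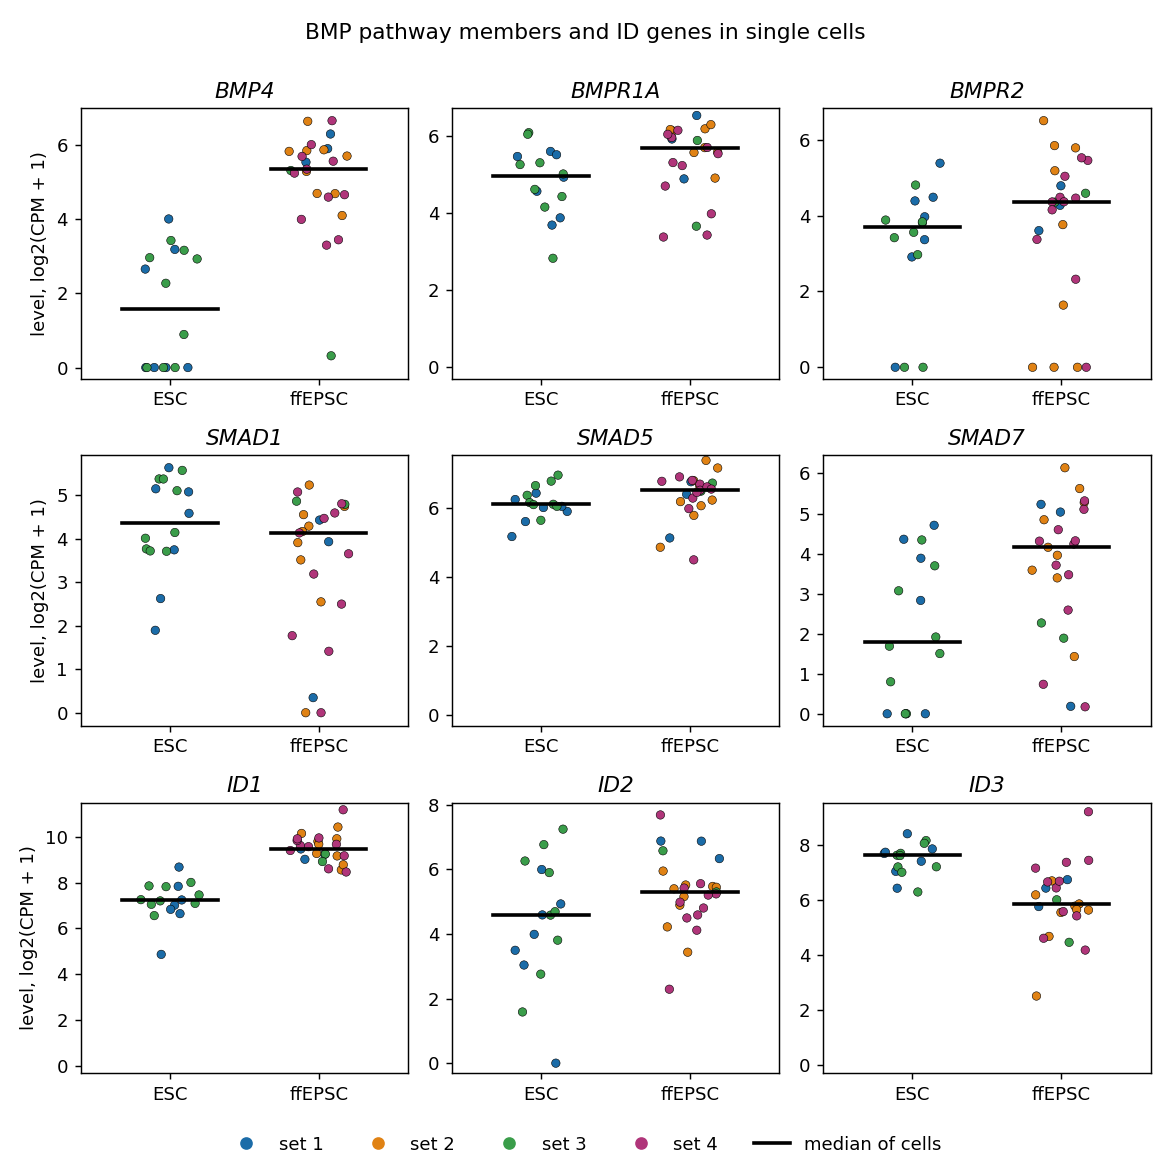
Level of each of the 9 genes in every cell, as log2(CPM + 1), in 16 ESC cells and 25 ffEPSC cells. Points are cells coloured by the set number in the cell name, and the bar is the median of the cells. Of the ffEPSC cells, 22 lie above all ESC cells for ID1, 21 for BMP4 and 8 for SMAD7, and 15 lie below all ESC cells for ID3. The shares of all genes with as many cells apart were not taken, so nothing is read from these counts.

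BMP4 (chromosome 14, 53949736 to 53958761 on GRCh38, minus strand) encodes the ligand. In ESC cells its level ran from 0 to 15.1 CPM with a median of 2.35 CPM, and in ffEPSC cells from 0.246 to 100.3 CPM with a median of 39.9 CPM. ESC cells were thus low or without reads, and 21 of 25 ffEPSC cells lay above every ESC cell, while 1 ffEPSC cell of set 3 was almost without reads. The share of all genes with as many cells apart was not taken. Of the 16 ESC cells 7 had 0 counts, which allows up to 0.256 CPM in the shallowest of them, and these 7 included all 4 of the shallowest ESC cells. Pooled over cells, BMP4 stood at 4.39 CPM (95% Poisson interval 4.14 to 4.65) and 43.8 CPM (43.1 to 44.4), giving 3.05 as the log2 ratio. These intervals and the limits for counts of 0 reflect counting error alone, because amplified reads carry no molecular identifiers. The ratio was 3.51 within set 1, 2.0 within set 3, 2.79 without the 4 shallowest ESC cells and 2.23 with only the 7 ffEPSC cells of little or no chromosome shift. BMP4 was thus more than 2-fold higher in each of these subsets, which partly overlap and are not separate checks. The 2 ffEPSC cells of set 3 stood at 38.9 and 0.246 CPM, so the ratio within set 3 rested on 1 cell. Both are also among the 7 cells of little or no chromosome shift. The part of the chromosome shift in the ratio was not tested.

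The sequence before the BMP4 start in RefSeq (GRCh38.p14, chr14:53955051-53955300, minus strand) is shown because BMP4 and ID1 were the 2 members with the largest ratios. This RefSeq start and its window lie inside the GENCODE span of BMP4 given above, whose 5' end is at 53958761. Capitals mark matches to GGCGCC, a GC-rich motif bound by SMAD1 and SMAD5, or to GTCT, the core SMAD box, on either strand.
BMP4: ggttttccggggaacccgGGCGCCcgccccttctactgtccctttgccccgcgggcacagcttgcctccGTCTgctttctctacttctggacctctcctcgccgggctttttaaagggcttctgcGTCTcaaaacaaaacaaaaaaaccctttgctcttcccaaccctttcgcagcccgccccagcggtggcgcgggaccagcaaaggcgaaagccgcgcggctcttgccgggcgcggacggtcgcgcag
The stretch holds 1 match to GGCGCC, at position -232 from the start, and 2 matches to GTCT. A match is a description of the letters and not a binding site. Among 35116 RefSeq promoter windows of 250 bases, 16.4% hold GGCGCC and 77.5% hold GTCT, so such matches are common.

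The receptor genes differed little. BMPR1A (chromosome 10, 86756601 to 86932838), a type I receptor gene, ran from 6.06 to 66.5 CPM in ESC cells (median 30.2) and from 9.35 to 90.9 CPM in ffEPSC cells (median 50.6). Most cells of the 2 states lay in the same range, with 6 of 25 ffEPSC cells above every ESC cell. The pooled log2 ratio was 0.53, but -0.04 with only the 7 ffEPSC cells of little or no chromosome shift, though BMPR1A does not lie on a shifted chromosome. BMPR2 (chromosome 2, 202376936 to 202567751), the type II receptor gene, ran from 0 to 40.7 CPM in ESC cells (median 11.9) and from 0 to 89.6 CPM in ffEPSC cells (median 19.5). It had no reads in 3 ESC and 4 ffEPSC cells, and 5 ffEPSC cells lay above every ESC cell. Its log2 ratio of 0.81 was 0.29 in set 1 and 0.89 in set 3.

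The SMAD genes did not share a direction. SMAD1 (chromosome 4, 145481194 to 145558079), a transducer gene, ran from 2.72 to 48.8 CPM in ESC cells (median 19.9) and from 0 to 36.8 CPM in ffEPSC cells (median 16.6). The groups overlapped broadly, with 4 ESC cells above every ffEPSC cell and 5 ffEPSC cells below every ESC cell. Its log2 ratio of -0.67 was -1.02 within set 1 and 0.08 within set 3. SMAD5 (chromosome 5, 136132845 to 136188747), the other transducer gene, ran from 34.9 to 122 CPM in ESC cells (median 67.2) and from 21.5 to 164 CPM in ffEPSC cells (median 89.6). It was the most even of the 9 genes across ESC cells, with a coefficient of variation of 0.313, and across ffEPSC cells as well (0.375). Its log2 ratio of 0.24 was no larger than the median of 0.31 for the genes of its chromosome.

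SMAD7 (chromosome 18, 48919853 to 48952052, minus strand) encodes the inhibitory SMAD that blocks type I receptors and is itself induced by the pathway. It ran from 0 to 25.1 CPM in ESC cells (median 2.50) and from 0.128 to 69.7 CPM in ffEPSC cells (median 16.8). The states overlapped, with 5 ESC cells at 0 counts and 8 ffEPSC cells above every ESC cell. The pooled log2 ratio was 1.25, but -0.61 within set 3, where the 2 ffEPSC cells stood at 2.70 and 3.81 CPM, so the direction of SMAD7 differed between sets. It was 1.13 within set 1 and came just under the 2-fold line (0.9996) without the 4 shallowest ESC cells.

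The ID genes split. ID1 (chromosome 20, 31605283 to 31606515) ran from 28.2 to 409 CPM in ESC cells (median 149) and from 353 to 2321 CPM in ffEPSC cells (median 709). All but 3 of the 25 ffEPSC cells lay above every ESC cell, and all but 1 of the 16 ESC cells lay below every ffEPSC cell. Complete separation upward was seen for 0.102% of the 10825 genes, and ID1 was not among them. The share with as many cells apart as ID1 was not taken. Pooled levels were 175 CPM (174 to 177) and 791 CPM (788 to 794), a log2 ratio of 2.17. It was 1.79 within set 1, 1.65 within set 3 and 1.79 with only the 7 ffEPSC cells of little or no chromosome shift. ID1 was thus more than 2-fold higher in each of these subsets, which partly overlap. The part of the chromosome shift was not tested. For chromosome 20 itself the 7 cells were not cleanly apart: their shift ran from -0.20 to 0.37, and that of the other 18 cells from 0.32 to 0.78.

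The stretch before the ID1 start (RefSeq, GRCh38.p14, chr20:31605039-31605282, plus strand) ends at the last base before the first exon in GENCODE, and capitals mark the same 2 motifs as above.
ID1: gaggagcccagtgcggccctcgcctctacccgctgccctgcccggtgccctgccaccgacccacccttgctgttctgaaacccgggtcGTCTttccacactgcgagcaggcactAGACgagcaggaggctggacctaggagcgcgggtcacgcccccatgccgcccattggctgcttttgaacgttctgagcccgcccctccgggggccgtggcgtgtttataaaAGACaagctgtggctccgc
It holds 0 matches to GGCGCC and 3 to GTCT on either strand. A longer motif, GGCGNC and GTCT with 5 bases of any kind between them, was searched on both strands. It was found in 0 of the 9 members' windows and in 0.256% of all windows. Sites farther than 250 bases from a start were not searched, and the motif is rare in such windows. Nothing is thus read from its absence. GTCT was present in 8 of the 9 windows and GGCGCC in 2, those of BMP4 and BMPR2. The windows of ID2 and ID3 overlap annotated exons of these genes and are not printed.

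ID3 (chromosome 1, 23557918 to 23559794, minus strand) went the other way. Its levels in ESC cells ran from 77.7 to 342 CPM (median 198), and in ffEPSC cells from 4.67 to 597 CPM (median 57.2). Of the 25 ffEPSC cells 24 lay below the ESC median and 15 below every ESC cell, while 1 lay above every ESC cell. Complete separation downward was seen for 0.111% of the 10825 genes, and ID3 was not among them. The share with as many cells apart as ID3 was not taken. The 1 ffEPSC cell above every ESC cell, of set 4, stood at 597 CPM, against 174 CPM in the next highest ffEPSC cell. Pooled levels were 185 CPM (183 to 187) and 89.99 CPM (89.0 to 91.0), a log2 ratio of -1.03, which was -1.39 without that cell. The ratio was -1.21 within set 1 and -2.03 within set 3, and it stopped short of 2-fold without the 4 shallowest ESC cells (-0.97) and after subtracting the median of its chromosome (-0.95).

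ID2 (chromosome 2, 8678845 to 8684453) stayed within 2-fold as a library. It ran from 0 to 150.2 CPM in ESC cells (median 22.98) and from 3.88 to 204 CPM in ffEPSC cells (median 38.3), with 1 ffEPSC cell above every ESC cell. The spread among ESC cells was wide, with a coefficient of variation of 1.12, against 0.517 for ID1 and 0.376 for ID3. The pooled log2 ratio of 0.35 was 2.34 in set 1 and 0.28 in set 3. The 3 ffEPSC cells of set 1 stood at 79.4 to 116 CPM, above the ESC cells of set 1 (0 to 62.6 CPM), whereas the medians of ffEPSC sets 2 and 4 were 41.1 and 30.6 CPM. Within set 1, with 3 ffEPSC and 7 ESC cells, the states thus did not overlap for ID2. The share of all genes that separate among so few cells was not taken, so nothing is read from this. Over all cells the states overlapped broadly for ID2.

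**Figure D2:**
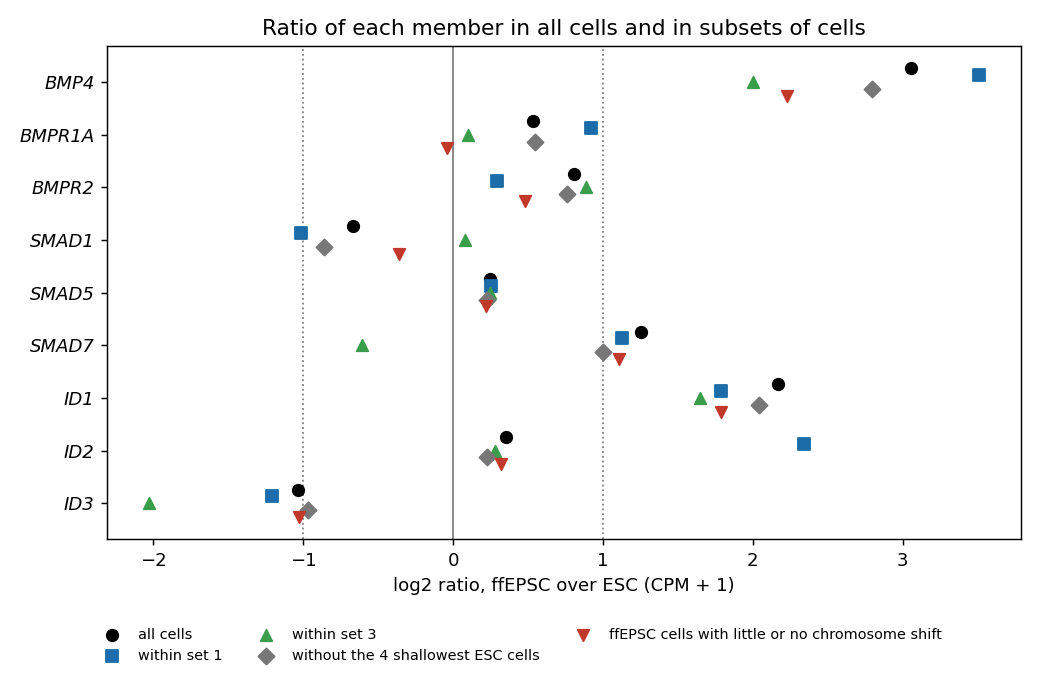
Log2 ratio of ffEPSC over ESC for each of the 9 genes, over all cells and in 4 subsets of cells, which partly overlap. Dotted lines mark 2-fold. BMP4 and ID1 lie right of the upper line in each of these subsets, ID3 lies at or left of -0.97, and SMAD7, SMAD1, ID2 and BMPR1A move with the subset.

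Per kilobase of exon, ID1 was the highest of the 9 genes in both libraries (142 CPM per kb in ESCs and 642 in ffEPSCs), followed by ID3 (103 and 50.1) and ID2 (17.6 and 22.6). Next in the ESC library came SMAD5 (8.03 CPM per kb), SMAD1 (4.17), BMPR1A (2.84), SMAD7 (1.46), BMP4 (1.43) and BMPR2 (1.07). In the ffEPSC library BMP4 moved up to the fourth place with 14.2 CPM per kb, ahead of SMAD5 (9.53), BMPR1A (4.14), SMAD7 (3.76), SMAD1 (2.57) and BMPR2 (1.94). The ranges over cells overlapped for every pair of neighbours in both orders. ID3 exceeded ID2 in all 16 ESC cells and ID1 exceeded ID3 in all 25 ffEPSC cells, while of the 16 ESC cells SMAD7 exceeded BMP4 in 9 and BMP4 exceeded BMPR2 in 9. By CPM, without exon length, ID3 (185 CPM) stood above ID1 (175 CPM) in the ESC library.

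The balance of ID1 and ID3 was also taken within each cell, where both share the same total. Per kilobase, ID1 was at 0.120 to 6.97 times ID3 in ESC cells, with a median of 1.32, and ID1 was the higher of the pair in 12 of 16 cells. By CPM, without exon length, ID1 was the higher in 5 of 16 ESC cells, with a median of 0.907 times ID3. The order in ESC cells thus depended on the measure. In ffEPSC cells ID1 was, per kilobase, at 4.83 to 179 times ID3, with a median of 14.1. It was higher in 25 of 25 cells by either measure. The ratio in 22 ffEPSC cells exceeded that of every ESC cell. The cell with the highest ID3 was also the ffEPSC cell highest in ID1 (2321 CPM, next highest 1376) and in ID2 (204 CPM, next highest 116), while its BMP4 level of 24.4 CPM ranked 19 of 25.

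**Figure D3:**
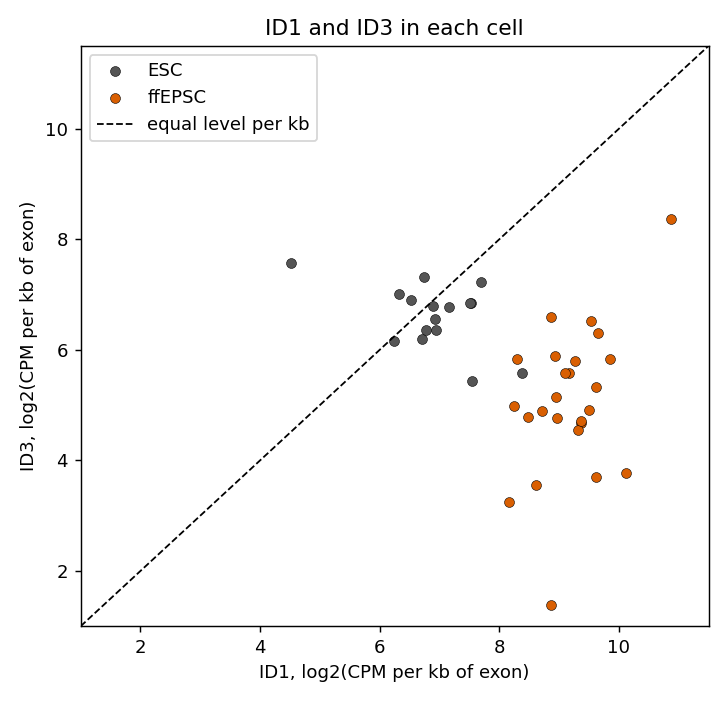
ID1 against ID3 in each cell, both as log2 of CPM per kb of exon, with ESC cells in grey, ffEPSC cells in orange and a dashed line at equal level. All 25 ffEPSC cells lie below the line and 12 of the 16 ESC cells do, and 1 ffEPSC cell stands apart with the highest level of both genes.

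Whether ID genes follow BMP4 from cell to cell was examined with Spearman's rho of CPM within each state. Over all 41 cells BMP4 and ID1 had a rho of 0.78, and BMP4 and ID3 of -0.57, but these values hold the difference between the states. Within the states the rho of BMP4 and ID1 was 0.32 across 16 ESC cells and 0.36 across 25 ffEPSC cells. That of BMP4 and ID2 was 0.19 and 0.10, and that of BMP4 and ID3 was -0.42 and -0.01. Cells of a state share 1 library, its sets and a range of depths, and these are descriptions without a test.

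For scale, the rho of BMP4 with 6339 genes across ffEPSC cells had a median of 0.01 and 5th and 95th percentiles of -0.37 and 0.40, and across ESC cells of -0.55 and 0.60. Each rho of BMP4 with an ID gene lay inside these ranges. BMP4 also moved with the total counts of the cell (rho 0.63 in ESC cells and 0.38 in ffEPSC cells), as did ID1 (0.52 and 0.26), and the part of depth in their rho was not tested. Without the 4 shallowest ESC cells the rho of BMP4 and ID1 in ESC cells was 0.09. In ffEPSC cells it was 0.43 with ranks centred within sets. BMP4 and ID1 both moved with the mean shift of chromosome 20 genes across ffEPSC cells (rho 0.45 for both), whose part in the result was not tested.

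**Figure D4:**
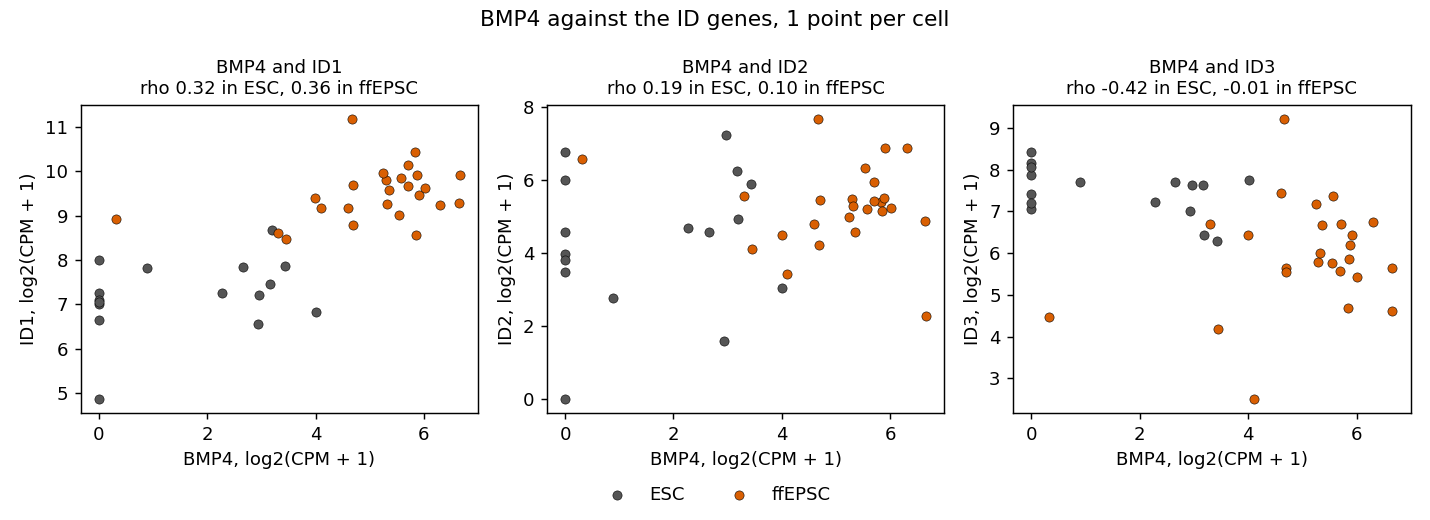
BMP4 against ID1, ID2 and ID3, 1 point per cell, as log2(CPM + 1), with ESC cells in grey and ffEPSC cells in orange. For ID1 the 2 states form clouds that meet at their edges (rho 0.32 and 0.36 within them), where 1 ESC cell with 409 CPM of ID1 lies beside ffEPSC cells with 388 and 353 CPM, and for ID2 and ID3 no common slope is seen in both states.

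Among the ID genes themselves, ID1 and ID3 had a rho of -0.30 across ESC cells and 0.27 across ffEPSC cells. The ESC value was 0.04 without the 2 cells farthest from the ID1 median, so it rested on them. ID2 and ID3 had a rho of 0.14 and 0.35, and ID1 and ID2 of 0.42 and 0.10. The last pair moved with the measure, to a Pearson r of 0.12 on the log scale in ESC cells and to a rho of 0.32 with ranks centred within sets in ffEPSC cells. ID2 and ID3 stood at -0.03 in ESC cells without the 4 shallowest. Over the 36 pairs of the 9 genes, rho ran from -0.54 to 0.63 in ESC cells and from -0.30 to 0.56 in ffEPSC cells, with medians of 0.04 and 0.03. The highest pair in ESC cells was SMAD1 and ID1 (0.63, against -0.13 in ffEPSC cells), and in ffEPSC cells BMPR2 and SMAD5 (0.56, against -0.47 in ESC cells). SMAD5 and SMAD7 came next in ffEPSC cells (0.54, against 0.16 in ESC cells), so the pairs that led in 1 state did not lead in the other. The 4 shallowest ESC cells ran from 2.72 to 16.7 CPM for SMAD1 and from 28.2 to 136 CPM for ID1. The other 12 ran from 12.1 to 48.8 and from 93.5 to 409 CPM. The part of these 4 cells in the rho of SMAD1 and ID1 was not tested.

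The genes most like each member across the 25 ffEPSC cells, among those with 20 CPM or more, were FOXRED1, TMEM179B and KIF18A for BMP4 (rho 0.79, 0.72 and 0.71). They were BEX2, UPP1 and PRDX4 for ID1 (0.72, 0.71 and 0.69), MCOLN1, FTL and SLC1A3 for ID2 (0.67, 0.65 and 0.64), and SLC4A8, UFC1 and CAP1 for ID3 (0.70, 0.65 and 0.65). None of the other 8 genes of the pathway was among them. SMAD1 (15.6 CPM) and SMAD7 (18.9 CPM) were below 20 CPM in the ffEPSC library and could not have been chosen. Across the 16 ESC cells, which did not choose these genes, the same pairs had a rho of -0.54 to 0.41, above 0 in 4 of 12, with FOXRED1 the highest (0.41).

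The position of BMP4 and ID1 was compared with the genes around them, since whole chromosomes differed. Of 10 measured genes within 1000 kb of ID1, 0 were at least 2-fold higher, and their log2 ratios ran from -0.30 to 0.87 with a median of 0.47, against 0.38 for chromosome 20. ID1 itself, at 2.17, ranked 7 of 282 genes on the chromosome. Around BMP4, 9 genes ran from 0.03 to 2.14 with a median of 0.39, and BMP4 ranked 2 of 364 on chromosome 14. Of the 9 neighbours 3 were at least 2-fold higher, against 8.3% of all genes. SAMD4A and GCH1, 2 of the 3, passed the floor of 5 CPM through the ffEPSC library only and so had to be higher there. Nothing is read from this count. In the 7 ffEPSC cells of little or no shift BMP4 ran from 0.246 to 45.6 CPM and ID1 from 388 to 990.2 CPM, against 9.91 to 100.3 and 353 to 2321 CPM in the other 18. The 19 genes around ID3 had a median of -0.05. ID3, at -1.03, was below all of them except LINC01355 (-1.34) and ranked 1010 of 1080 on chromosome 1. LINC01355 passed the floor through the ESC library only, which fixes its direction. The 6 genes around ID2 had a median of -0.26.

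**Figure D5:**
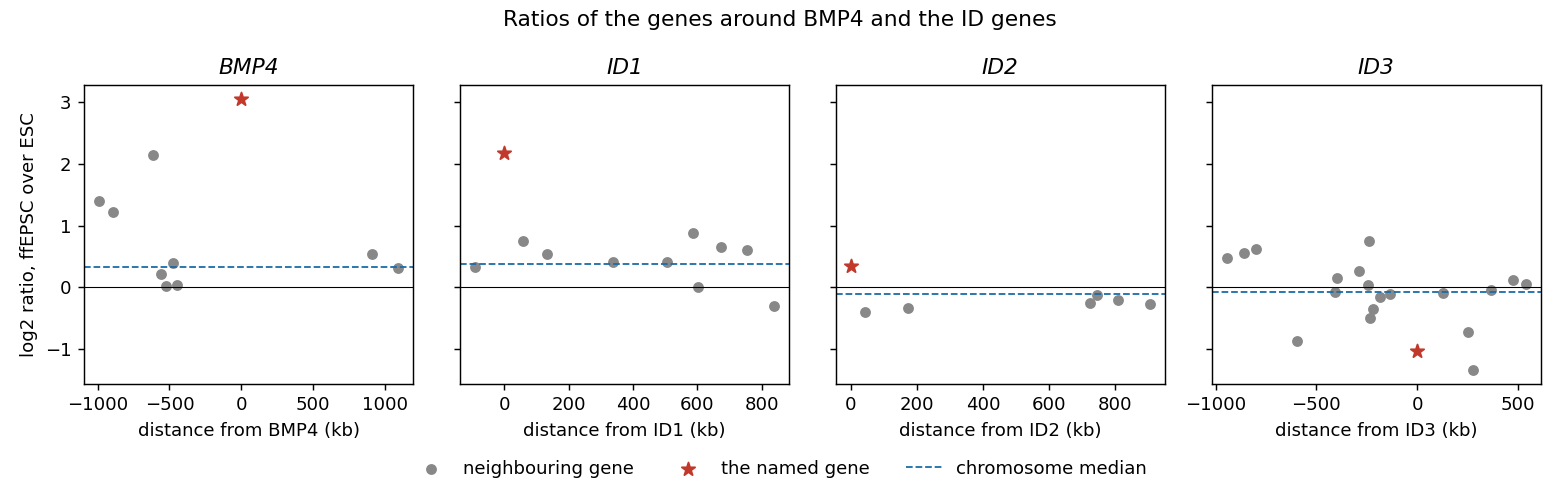
Log2 ratio of ffEPSC over ESC for genes within 1000 kb of BMP4, ID1, ID2 and ID3, against the distance between their annotated left ends in kb, positive in the direction in which the named gene is transcribed. The star is the named gene and the dashed line the median of its chromosome. BMP4 and ID1 lie above all of their measured neighbours, and ID3 lies below all but 1 of its 19 neighbours.

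Of 67 other genes of the BMP pathway, 49 were listed and 25 reached 5 CPM in either library. By 2-fold or more, 3 of the 25 were higher in ffEPSCs (12%, against 8.3% of all genes) and 1 was lower (4%, against 5.84%). BMP7 and SOSTDC1, 2 of the 3, and SKI passed the floor through the ffEPSC library only and so had to be higher there. CHRDL1, the 1 lower gene, RGMB, FSTL3 and CRIM1 passed it through the ESC library only and so had to be lower there. Nothing is read from the counts. The median log2 ratio of the 25 genes was 0.14. Among the ligands BMP7, which signals through the same SMADs, was the only one past the floor. It ran from 0 to 13.4 CPM in ESC cells (median 1.43) and from 0 to 51.8 CPM in ffEPSC cells (median 30.4), and the log2 ratio of 2.63 was 2.43 in set 1 and 1.42 in set 3. BMP7 lies on chromosome 20 as well. Like BMP4 it passed the floor through the ffEPSC library only, which fixes its direction. BMP2, another ligand gene, was below the floor at 1.93 and 1.58 CPM (-0.18).

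Of 5 measured receptors and co-receptors and 7 intracellular mediators, 0 were 2-fold apart in either direction over all cells. ACVR1, a type I receptor gene, had a ratio of 0.73, RGMB, a co-receptor gene, of -0.43, and the type II receptor genes ACVR2B and ACVR2A of 0.14 and 0.11. SMURF2, a ubiquitin ligase gene that acts on SMADs and receptors, was at 0.91, the corepressor genes SKI and SKIL at 0.70 and 0.47, and YY1 at 0.58. SMAD4, the shared partner of the transducers, was at 33.3 and 39.8 CPM (0.25), and SMAD6, an inhibitory SMAD gene, stood at 0.0603 and 0.551 CPM. Some of these signs did not hold within sets: SKI was at -1.83 and -0.47 in sets 1 and 3, and ACVR2A at -0.93 and -1.62. SMAD4 was at 1.5 and 0.77 in the same sets, so in set 1 it was more than 2-fold higher.

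Antagonists went both ways, though over all cells the floor fixed the directions of SOSTDC1, CHRDL1, FSTL3 and CRIM1. SOSTDC1, a secreted BMP antagonist gene, was higher (0.859 and 5.04 CPM, 1.70) from 8 ffEPSC cells with 1 CPM or more, and lower within set 3 (-0.63). CHRDL1, a chordin-like BMP binder, was lower (10.4 and 3.35 CPM, -1.39) but at 0.87 within set 3. BAMBI, a decoy receptor gene and BMP target, had a ratio of 0.92 over all cells and -2.13 within set 3, and FSTL3 of -0.73. NOG, the noggin gene, was without counts among ESC cells (a level of up to 0.0113 CPM is possible) and stood at 0.674 CPM over the ffEPSC cells, of which 3 had 1 CPM or more.

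Of 20 target genes outside the 9 members, 13 were listed and 2 passed the floor, BAMBI and TFAP2C. TFAP2C, a transcription factor gene of naive and trophoblast cells, was at 7.75 and 85.7 CPM (3.31), and at 3.45 and 3.08 within sets 1 and 3. It lies on chromosome 20 too. ID4, the remaining ID gene, was at 2.25 and 2.91 CPM (0.27), with 1 CPM or more in 6 ESC and 9 ffEPSC cells. The E protein genes, whose products the ID proteins bind, stayed within 2-fold: TCF12 was at 109 and 56.6 CPM (-0.93), TCF4 at 36.6 and 31.0 CPM (-0.23) and TCF3 at 29.5 and 34.1 CPM (0.21). TCF12 thus came closest to 2-fold among them, though it was at -0.20 within set 3. TCF4 was higher in ffEPSCs within both sets, at 0.12 in set 1 and 0.66 in set 3.

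Markers of the fates that BMP4 can induce were low in both states. Of 8 trophoblast markers 3 were listed, with a summed level of at most 24.5 CPM in any ESC cell and 16.9 CPM in any ffEPSC cell. GATA3 and ERVW-1 had 0 counts in the ESC library and stood at 0.695 and 0.497 CPM in the ffEPSC library. KRT7, the third, was lower in ffEPSCs, at 6.93 CPM over ESC cells and 1.63 CPM over ffEPSC cells. Of 8 amnion markers 5 were listed, with at most 53.9 and 54.0 CPM. Of 8 primitive streak and mesoderm markers 5 were listed, with a median summed level of 0.591 CPM in ESC cells and 4.22 CPM in ffEPSC cells. Of these 5, EOMES, TBXT and MIXL1, transcription factor genes of the streak, had 1 CPM or more in 9, 9 and 10 of the 25 ffEPSC cells and in 0, 1 and 2 of the 16 ESC cells. SNAI2, a transcription factor gene of migrating mesenchyme, went the other way, with 5.52 CPM over ESC cells and 0.144 CPM over ffEPSC cells.

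Across ffEPSC cells the summed level of the 5 streak and mesoderm markers had a rho of 0.72 with ID1, against 0.21 with BMP4. The amnion list had a rho of 0.61 with ID1 and 0.42 with BMP4 across the same cells. The streak value with ID1 was the highest of 56 such values, over 7 marker lists, 4 genes and 2 states, and was singled out after the values were seen. It was 0.69 without the cell highest in ID1, which stood at 19.7 CPM for these markers, and -0.00 across ESC cells. Taken singly, EOMES had a rho of 0.49 with ID1, TBXT of 0.47, MIXL1 of 0.37, SNAI2 of 0.20 and TBX6 of -0.13. The markers had no reads at all in 6 of the 25 ffEPSC cells, so the sum rests on sparse counts.

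Summed levels of feeder and neuroectoderm markers were lower in ffEPSCs along with ID3. They were not alone in this. Pooled sums were also lower for trophoblast (6.93 and 2.82 CPM), amnion (16.4 and 14.5 CPM) and endoderm markers (18.4 and 8.87 CPM, 5 of 7 listed). Those of streak and mesoderm markers (6.47 and 9.31 CPM) and of pluripotent markers (3254 and 3848 CPM) were higher. Of 8 feeder or fibroblast markers 5 were listed, with summed levels of 143 to 765 CPM in ESC cells and 47.6 to 414 CPM in ffEPSC cells. By 2-fold or more, 4 of the 5 were lower: THY1 (382 and 169 CPM), which pluripotent cells also express and which made up most of the sum, S100A4 (34.2 and 0.460 CPM), TAGLN (47.1 and 12.5 CPM) and COL1A1 (8.67 and 2.28 CPM). The remaining one, COL1A2, was at 19.2 and 15.3 CPM, and COL3A1, DCN and LUM were not listed. Of 6 neuroectoderm markers 5 were listed, with 38.6 to 207 CPM in ESC cells and 4.40 to 77.9 CPM in ffEPSC cells. Of these 5, 2 were lower by 2-fold or more, FABP7 (62.6 and 1.03 CPM) and MAP2 (9.87 and 0.0160 CPM). NES was at 22.5 and 24.2 CPM, and PAX6 and ZIC1 were at 0.354 CPM or below in both libraries. The part of these lists in the ID3 and ID1 ratios was not tested. Within the states the feeder sum had a rho with ID3 of -0.06 (ESC) and -0.16 (ffEPSC). With ID2 it was -0.13 (ESC) and -0.65 (ffEPSC), the last being the lowest of the 56 values of marker lists.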

How the data were processed

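The values are whole-number counts per gene and cell, deposited by the authors without normalization. Libraries were made with Smart-seq2, per the labels' protocols, which also name a column kit for total RNA as the extraction, a step usual for bulk samples. The labels do not say how this was done for single cells. For alignment and counting, the submitters' processing notes list HISAT2 2.2.1 and SAMtools 1.6, with Subread 2.0.6, featureCounts and bcl2fastq, in no stated role or order. The tables used are those named for GRCh38. Annotation, strand setting and the treatment of multiply mapped reads: not given in the sources used here. Antisense or pseudogene partners listed for BMPR1A, SMAD1, SMAD5 and ID2 stood at 0.214 CPM or below in both libraries. In the median cell 98.5% (ESC) and 98.4% (ffEPSC) of non-zero counts were even. If each fragment was counted by both of its reads, the counting intervals are narrower than they should be. Tables of repeats on another build were not used here.

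No cell was removed, cells were not clustered and doublets were not called. CPM were computed per cell and over the summed cells of a library with Python 3.11.15, pandas 2.3.3, numpy 2.4.6 and scipy 1.17.1. Intervals are exact Poisson intervals at 95%, and a count of 0 allows up to 3 counts. Positions and exon lengths (union of exons) come from GENCODE 29 on GRCh38, which matched 21289 of 22474 genes. Chromosomes were called shifted where the median log2 ratio of their genes reached 0.25. A cell's shift of a chromosome is the mean difference of log2(CPM + 1) from the ESC cells over its genes with 20 CPM, less the median autosome. Cells whose shift averaged under 0.3 over these chromosomes were taken as having little or no shift. For thinning, each cell was drawn down to 11714517 counts. Alternatives were other pseudocounts, floors and scalings, means and medians of cells, single sets and subsets of cells. The ratio and rho steps were tested on simulated data.

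Named were all 9 members, up to 4 genes per pathway list with the largest ratios past the floor, ID4, NOG, SMAD4 and SMAD6 in any case, and the 3 genes with the highest rho with BMP4 and each ID gene across ffEPSC cells, outside ribosomal protein genes and pseudogenes, with 20 CPM and a read in 50% of the cells. Markers were named after their values were seen. The members and lists were chosen with earlier results of these data known.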

Additional observations from a re-analysis of the deposited data

How the results depend on the processing

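Over the 11 alternatives the log2 ratio ran from 2.0 to 3.61 for BMP4 and from 1.65 to 2.24 for ID1, both at least 2-fold higher in each, and from -2.03 to -0.95 for ID3, at least 2-fold lower in 9. SMAD7 ran from -0.61 (within set 3) to 2.35 and was at least 2-fold higher in 8. The members at least 2-fold lower numbered 2 within set 1 (SMAD1 joined ID3), 0 without the 4 shallowest ESC cells and 0 after subtracting the chromosome median. The pathway genes at least 2-fold higher, 3 of 25 over all cells, numbered 11 of 30 within set 1 and 9 of 49 with no floor. Those at least 2-fold lower, 1 of 25 over all cells, numbered 2 of 30 within set 1 and 2 of 49 with no floor. They numbered 2 of 21 with the median of cells and 2 of 26 without the 4 shallowest ESC cells. Within set 3 they were 5 of 24. With a pseudocount of 5 CPM they were 0 of 25, and with a floor of 20 CPM 0 of 15. The share of all genes was not taken in these settings, so nothing is read from these counts. In ESC cells, leaving out the 2 cells farthest from the BMP4 median gave a rho of 0.44 with ID1 and 0.34 with ID2, and leaving out the 4 shallowest gave 0.092 with ID1. In ffEPSC cells BMP4 and ID2 had a Pearson r of -0.10 on the log scale, a rho of 0.31 without the 2 farthest cells and of -0.036 with ranks centred within sets. BMP4 and ID3 had a Pearson r of 0.20 and a rho of 0.11 without the 2 farthest cells. The causes were not tested. Thinning every cell to 11714517 counts moved none of the rho values of BMP4 with an ID gene by 0.1 or more. Leaving out the ffEPSC cell highest in ID1 was an alternative chosen after seeing the data. No paired analysis was possible because each state is 1 sample and the labels give no replicate numbers.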
